A study of Homo sapiens with 6 samples.

Results

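UBN2 and the genes that work with it in the HIRA histone chaperone complex are described here in HCT116 cells given miR-224. The genes are UBN2, UBN1, HIRA and CABIN1, which encode the complex, and ASF1A and ASF1B, which supply it with histones. Every probe set annotated with only 1 of these symbols was taken, which gave 14 of 54613 probe sets, for 6 of 19775 genes. UBN2 has 5 of them, UBN1, HIRA, CABIN1 and ASF1A have 2 each, and ASF1B has 1. UBN2 was chosen by its difference between miR-224 and control cells on these same arrays, in earlier work, so that difference is given as a description with no test. The other 5 genes follow from their place in the complex.

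The study compared 3 arrays of cells transfected with miR-224 precursor molecules at 50 nM with 3 arrays of cells transfected with control oligos at 50 nM, all harvested after 24 h. HCT116 is an established human colon carcinoma line, and no allele or other agent is named for either group. The series describes the arrays as pairs from 3 independent experiments, and equal numbers in the titles were read as 1 experiment. Expression was measured on Affymetrix U133 Plus arrays as RMA values, read as log2, and the number of arrays limits the precision. A microRNA lowers the level or the translation of messenger RNAs that pair with its seed, and the question of the comparison is which transcripts differ when miR-224 is supplied from outside.

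The HIRA complex places the histone variant H3.3 into chromatin without DNA replication, at active genes, promoters and gaps in the nucleosome array. HIRA is the scaffold, ubinucleins bind H3.3 itself, and CABIN1 is an accessory subunit. ASF1 proteins carry histone H3-H4 dimers and hand them either to HIRA or to CAF-1, the chaperone that acts behind the replication fork. In senescent human cells HIRA and ASF1A gather histones into condensed foci, and HIRA passes through PML bodies on the way.

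The mature miR-224 sequences are shown because the groups differ in being given miR-224 precursor molecules or control oligos. Whether the 5p arm, the 3p arm or both were present in the transfected cells was not tested. Capitals mark the seed, bases 2 to 8 from the 5′ end. The sequences are those of RefSeq in GRCh38.p14, both on the minus strand, with the 5p arm at chrX:151958628-151958652 and the 3p arm at chrX:151958584-151958606.
hsa-miR-224-5p: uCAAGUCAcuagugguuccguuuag
hsa-miR-224-3p: aAAAUGGUgcccuagugacuaca
Neither seed is shared with another of the 2370 mature human microRNAs in that table, so no other microRNA there has the same 7 letters at these bases. Sites for these seeds in the messenger RNAs of the complex were not analysed here, and the level of miR-224 itself was not read.

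Both arrays of experiment 1 stood apart from the other 4 in the control probe sets for the 5′ end and middle of transcripts. This held in miR-224 and control cells alike. For actin, the array's 5′ control probe set averaged 4.28 over experiment 1 and 12.4 over the other experiments. Its middle control averaged 6.74 and 12.5, and its 3′ control 12.5 over both. For GAPDH, the 5′ control averaged 4.10 and 13.0, the middle control 9.95 and 13.1, and the 3′ control 12.8 and 13.0. How far this reaches other probe sets was not tested. The 7 colon epithelial markers were all measured at or above the median of all probe sets. Their summed log2 level was 57.9 to 63.2 on miR-224 arrays and 56.8 to 63.8 on control arrays. These sums hide KRT8, 1 of the 7, which read 7.30 in miR-224 and 6.73 in control cells of experiment 1. There it lay below the mean of experiments 2 and 3 by -3.83 in miR-224 cells and by -4.52 in control cells. For 7 markers of fibroblasts, leukocytes and endothelium, of which 4 reached the median of all probe sets, the sums were 26.2 to 27.3 on miR-224 arrays and 26.6 to 27.2 on control arrays. Reaching that median does not show that a marker is expressed. Over the 6 arrays, VIL1 and CDX2 of the colon markers averaged 3.95 and 5.33, below COL1A1 of the other markers at 5.96. The sums are therefore no uniform check of cell identity. Array values cannot tell fewer cells with a transcript from less of it in each cell.

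UBN2, a ubinuclein and the paralog of UBN1, was lower in miR-224 cells on its 2 brightest probe sets, in every experiment. On the brightest, 225445_at, it read 4.92, 4.48 and 4.77 in miR-224 cells of experiments 1, 2 and 3, against 5.44, 5.89 and 5.32 in control cells. Every miR-224 array lay below every control array, and the arrays of experiment 2 were both the lowest and the highest of the 6. The groups averaged 4.73 ± 0.22 in miR-224 cells and 5.55 ± 0.30 in control cells (SD, n = 3 each). The difference was -0.82 ± 0.18 on the log2 scale (SE of the limma fit with experiment as a block), which corresponds to a level 1.77 times higher in control cells. It stood at -0.51, -1.41 and -0.55 in experiments 1, 2 and 3 (SD 0.51), so experiment 2 had by far the widest gap.

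The next brightest UBN2 probe set, 225444_at, read 4.96, 3.81 and 3.37 in miR-224 cells and 5.09, 4.95 and 4.24 in control cells of experiments 1, 2 and 3. Its lowest value, 3.37, was below the median level of all probe sets, 3.48. Here the groups overlapped, because the miR-224 array of experiment 1 was above the control array of experiment 3 and just above that of experiment 2. The averages were 4.04 ± 0.82 in miR-224 cells and 4.76 ± 0.46 in control cells (SD, n = 3 each), and the paired differences were -0.14, -1.14 and -0.87 (SD 0.52). Their mean was -0.72 ± 0.18 (SE of the fit), close to that of the brightest probe set, but with little gap in experiment 1.

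The other 3 UBN2 probe sets did not show this gap. The probe set 238349_at read 3.85, 3.79 and 3.83 in miR-224 cells and 3.87, 3.77 and 3.88 in control cells, a mean difference of -0.01 ± 0.10 (SE). The remaining ones were below the median level of 3.48, with 238350_at at 2.93 to 3.25 in miR-224 cells and 2.93 to 3.09 in control cells, and 240932_at at 2.42 to 2.52 in miR-224 cells and 2.48 to 2.67 in control cells. Their differences were 0.003 ± 0.11 and -0.11 ± 0.11 (SE). All 3 had both signs among the experiments, and their values spanned a narrow range on all 6 arrays.

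**Figure D1:**
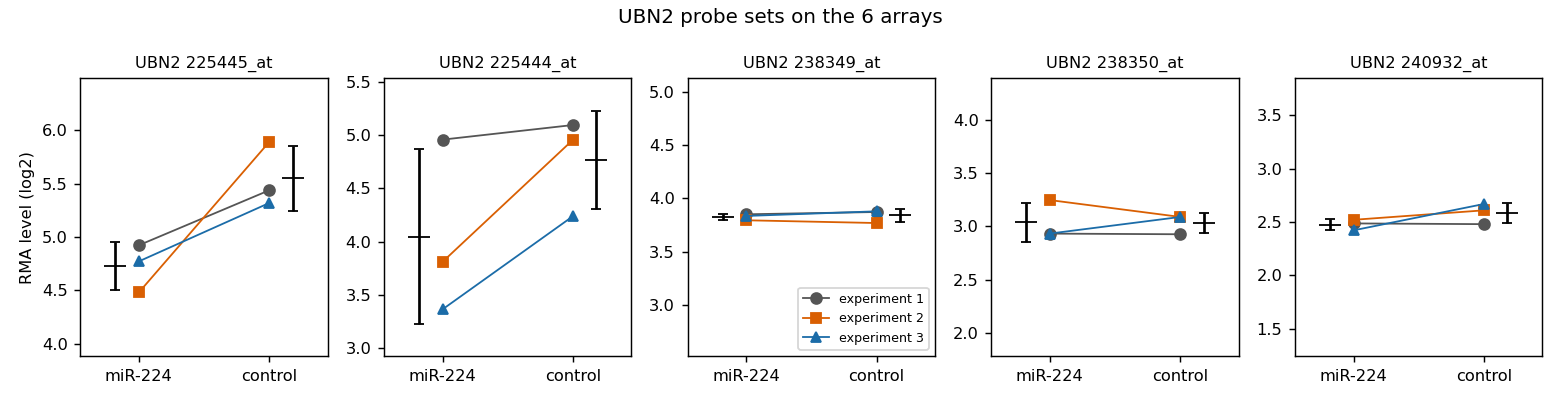
RMA level (log2, y axis) of the 5 UBN2 probe sets in miR-224 and control cells, with lines joining the arrays of 1 experiment and black marks giving the group mean ± SD (n = 3). The lines of 225445_at and 225444_at run upward toward control in every experiment, while the other 3 probe sets lie nearly flat; each panel spans the same number of log2 units.

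Among all 54613 probe sets, 77 had a lower difference than 225445_at and 161 a lower one than 225444_at. Being lower in all 3 experiments was shared by 14.8% of all probe sets, and having every miR-224 array below every control array by 2.64%. These figures use the values that brought UBN2 forward and are given only to place it. Leaving out experiment 2 brought the difference of 225445_at to -0.53. The mean over all 5 UBN2 probe sets differed by -0.33. With experiments 2 and 3 alone, the differences were -0.98 for 225445_at and -1.01 for 225444_at. For 225444_at the difference was -0.50 without experiment 2 and -0.64 without experiment 3. In the fit without experiment as a block, its standard error rose to 0.45.

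No probe set of the other 5 genes passed the test, and neither did any other probe set on the array in the fit over all 6 arrays. The limma fit with experiment as a block called 0 of 54613 probe sets at an adjusted p under 0.05 in either direction (0% lower and 0% higher), and 5352 (9.8%) had an unadjusted p under 0.05. Of the 9 probe sets of UBN1, HIRA, CABIN1, ASF1A and ASF1B, 0 were called and 0 had an unadjusted p under 0.05. Without experiment 1 the fit called 137 probe sets, and with an intensity trend and robust variances it called 28, in each case 0 of these 9.

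UBN1, the other ubinuclein, did not show the gap of UBN2 on its brightest probe set. On 207253_s_at it read 7.43, 7.40 and 6.94 in miR-224 cells and 7.26, 7.40 and 6.90 in control cells of experiments 1, 2 and 3. The groups overlapped and followed the experiments, and the difference was 0.07 ± 0.10 (SE; limma adjusted p = 0.87), with a 95% interval of -0.17 to 0.31. The second UBN1 probe set, 209088_s_at, read 5.01, 6.17 and 6.46 in miR-224 cells and 5.07, 6.75 and 6.55 in control cells. It was lower in all 3 experiments by -0.06, -0.57 and -0.09, with a mean of -0.24 ± 0.13 (SE; limma adjusted p = 0.59) and an interval of -0.54 to 0.06. Without experiment 2 that mean was -0.07.

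The 2 UBN1 probe sets also differed in how they followed the experiments, whatever the treatment. On 209088_s_at, experiment 1 lay below the mean of experiments 2 and 3 by -1.31 in miR-224 cells and by -1.58 in control cells. On 207253_s_at, experiment 1 lay above it by 0.26 in miR-224 cells and 0.10 in control cells. The low 5′ and middle signal of experiment 1 given above moves with the low values of 209088_s_at. Its part in them was not tested.

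HIRA, the scaffold of the complex, had a lower mean in miR-224 cells that rested on experiment 2. On 217427_s_at it read 7.95, 6.90 and 7.05 in miR-224 cells, against 7.89, 7.78 and 7.29 in control cells. The experiments differed in sign, at 0.06, -0.88 and -0.24, and the groups overlapped. The mean difference was -0.35 ± 0.17 (SE; limma adjusted p = 0.55), with a 95% interval of -0.74 to 0.03. It was -0.09 without experiment 2 and -0.56 without experiment 1, where the limma adjusted p was 0.27. The other HIRA probe set, 1569560_at, was dim, at 1.97 to 2.24 in miR-224 cells and 2.05 to 2.36 in control cells, with a difference of -0.08 ± 0.10 (SE).

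CABIN1, which is also known as a calcineurin-binding protein, had probe sets of opposite sign. On 37652_at it read 6.62, 6.70 and 6.78 in miR-224 cells and 6.27, 6.80 and 6.82 in control cells. Only experiment 1 was higher in miR-224 cells, by 0.36, and the mean difference was 0.07 ± 0.12 (SE; limma adjusted p = 0.90), or -0.07 without experiment 1. On 202624_s_at it read 6.14, 6.59 and 6.89 in miR-224 cells and 6.20, 6.89 and 7.05 in control cells, lower in all 3 experiments. That difference was -0.18 ± 0.11 (SE; limma adjusted p = 0.64), with an interval of -0.42 to 0.07, and it was -0.11 without experiment 2.

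ASF1A, the H3-H4 carrier most closely tied to HIRA, was higher in miR-224 cells in all 3 experiments on both of its probe sets, by amounts that did not pass the test. On 203428_s_at it read 7.95, 7.71 and 6.90 in miR-224 cells and 7.83, 7.38 and 6.70 in control cells. The paired differences were 0.13, 0.33 and 0.21, while the level itself was lower in experiment 3 than in experiment 1 in both groups. The mean was 0.22 ± 0.10 (SE; limma adjusted p = 0.54), with an interval of -0.02 to 0.46. On 203427_at it read 7.73, 6.72 and 6.05 in miR-224 cells and 7.64, 6.38 and 5.91 in control cells, with a mean difference of 0.19 ± 0.11 (SE; limma adjusted p = 0.61), which was 0.11 without experiment 2. Across all probe sets, 16.5% were higher in all 3 experiments.

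ASF1B, the paralog linked to dividing cells, showed no shared direction. On 218115_at it read 8.17, 7.89 and 7.79 in miR-224 cells and 8.28, 8.26 and 7.50 in control cells. It was lower in experiments 1 and 2 by -0.11 and -0.37 and higher in experiment 3 by 0.28, so the groups overlapped. The mean was -0.06 ± 0.14 (SE; limma adjusted p = 0.92), with an interval of -0.38 to 0.25, and it changed sign to 0.09 without experiment 2.

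**Figure D2:**
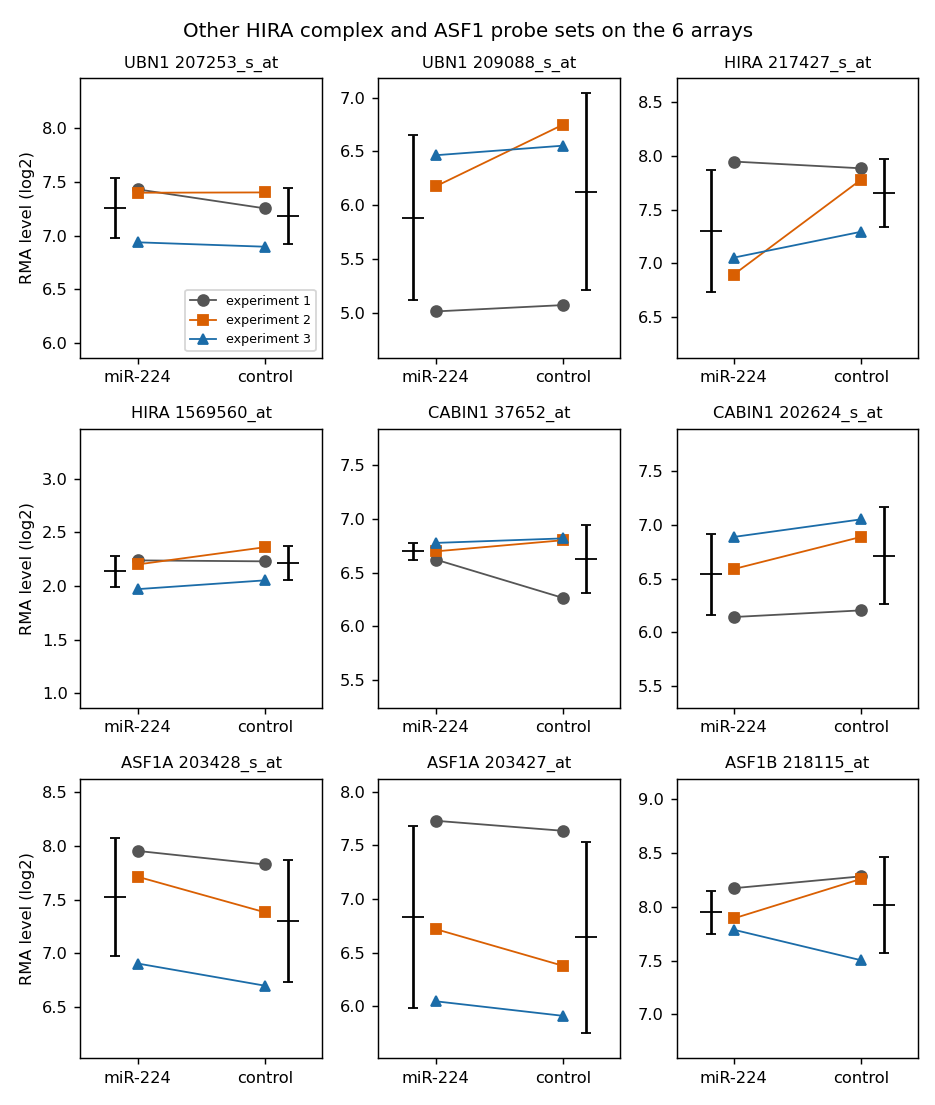
RMA level (log2, y axis) of the 9 probe sets of UBN1, HIRA, CABIN1, ASF1A and ASF1B in miR-224 and control cells, drawn as for UBN2 with lines joining the arrays of 1 experiment and black marks giving mean ± SD (n = 3). The distance between experiments is wider than that between groups on most of them, as on 203427_at of ASF1A and on 209088_s_at of UBN1, where experiment 1 reads 5.01 in miR-224 and 5.07 in control cells.

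Of the 9 probe sets other than those of UBN2, 2 were lower in miR-224 cells in every experiment, 209088_s_at of UBN1 and 202624_s_at of CABIN1, against 14.8% of all probe sets on the array. Another 2, both of ASF1A, were higher in every experiment, against 16.5%. The groups overlapped on each of these 9. The 6 genes did not share a direction on the brightest probe set of each. The mean in miR-224 cells was lower for 3, UBN2, HIRA and ASF1B, and higher for 3, UBN1, CABIN1 and ASF1A. The median difference was 0.003, compared with 46.8% lower and a median of 0.01 over all genes. UBN2 was chosen for its difference on these arrays, so this split and median only describe the 6 and do not test them against all genes.

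**Figure D3:**
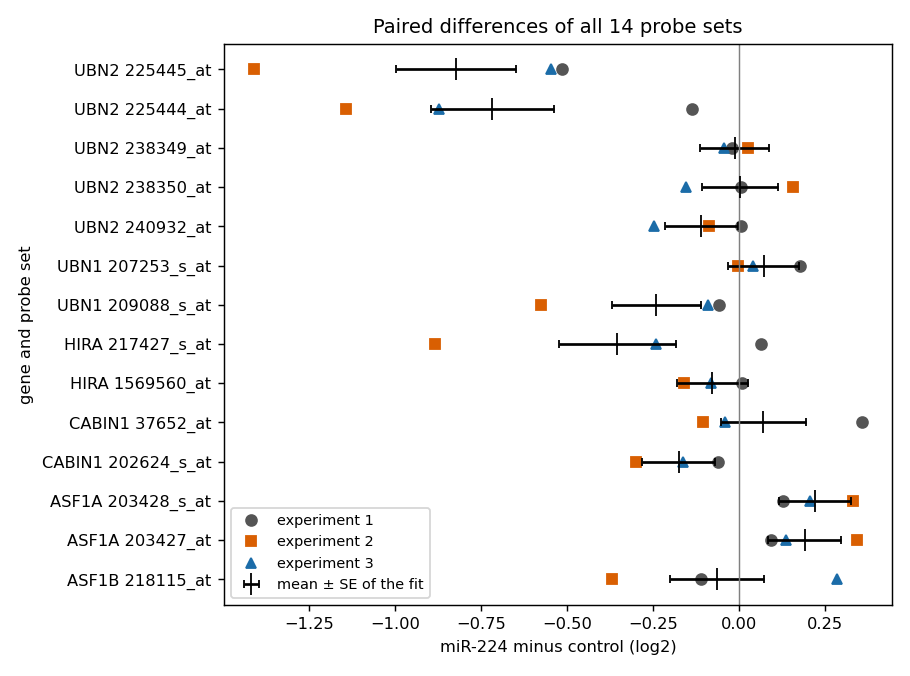
Difference between miR-224 and control cells (log2, x axis) of each of the 14 probe sets in experiments 1, 2 and 3, with black marks giving the mean ± SE of the blocked fit. UBN2 225445_at and 225444_at lie farthest to the left, at means of -0.82 and -0.72, and the squares of experiment 2 are the outermost points on most rows.

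The genes whose profile was most like that of UBN2 were sought among 9887 other genes at or above the median gene level of 4.75. The measure was the root mean square distance to 225445_at over the 6 arrays, each profile centred on its own mean, so it takes in the treatment difference that brought UBN2 forward as well as the experiments. The nearest was CDK2AP2, a CDK2-associated protein gene, at a distance of 0.197 against a median of 0.540 over all those genes. It was followed by ASH2L, a subunit of histone H3 lysine methyltransferase complexes, at 0.213, the pseudogene BMS1P1 at 0.214, LSM14B at 0.229 and KCTD2 at 0.230. As a pseudogene, BMS1P1 may share probes with its relatives, and its value is uncertain.

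These 5 genes had their widest gap in experiment 2, as UBN2 did. They were chosen for nearness to the UBN2 values, that gap included, so sharing it follows from the choice. CDK2AP2 read 7.01, 6.49 and 6.36 in miR-224 cells and 7.06, 7.56 and 6.98 in control cells of experiments 1, 2 and 3. ASH2L read 7.87, 7.19 and 7.31 in miR-224 cells and 8.16, 8.13 and 7.97 in control cells, and its groups did not overlap. Of the members, HIRA was at 0.371, ASF1B at 0.443, the second UBN2 probe set at 0.475, UBN1 at 0.506, CABIN1 at 0.517 and ASF1A at 0.699. The median over all compared genes was 0.540. The 5 named above are by choice the smallest of 9887 distances, so nothing is concluded from the members lying farther off.

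**Figure D4:**
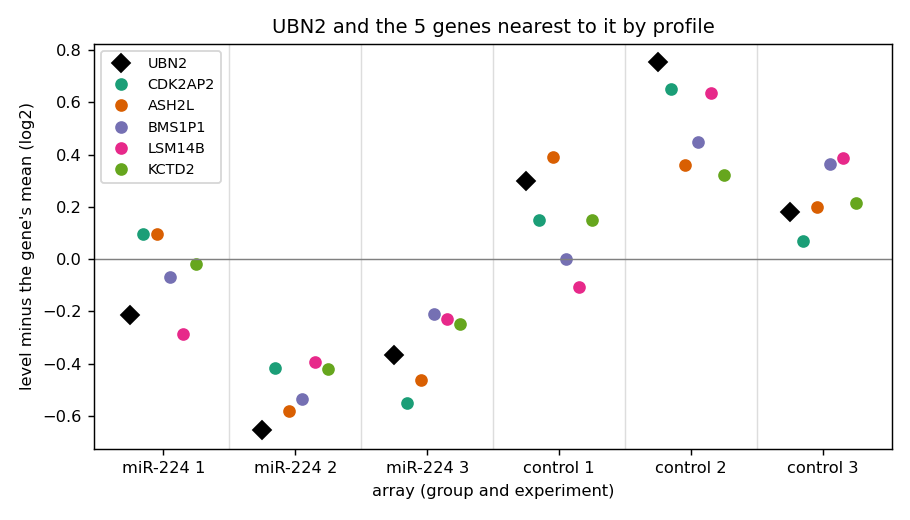
Level minus the gene's own mean over the 6 arrays (log2, y axis) for UBN2 (225445_at, diamonds) and the 5 genes nearest to it by root mean square distance, on each array (x axis). All 6 genes lie below 0 on the miR-224 arrays of experiments 2 and 3 and above 0 on the control arrays of those experiments, while in experiment 1 CDK2AP2 and ASH2L lie above 0 in both groups.

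Other genes of histone deposition were taken from lists that name H3.3 itself, the chaperones that share H3-H4 with HIRA, and kinases, cyclins and PML body genes linked to HIRA. Of 30 genes, 28 had a probe set of their own. On the brightest of each, 15 had a lower and 13 a higher mean in miR-224 cells, with a median difference of -0.01 compared with 0.01 over all genes. None passed the limma test over all probe sets (0 lower and 0 higher), and 6 had an unadjusted p under 0.05, compared with 10.2% of all genes. Of the 28, 8 were lower in all 3 experiments and 4 higher in all 3, compared with 14.4% and 18.3% of all genes. The lists were chosen with earlier results of these data known. All 28 reached the median level of all probe sets, as did 13171 of the 19775 genes. These counts therefore only describe the 28 and do not test them against all genes.

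H3-3A, one of the genes for H3.3, read 5.06, 5.01 and 5.00 in miR-224 cells and 5.34, 5.02 and 5.31 in control cells, with a difference of -0.20 ± 0.11 (SE; limma adjusted p = 0.60). The probe sets for H3-3B are annotated with several genes and are not named here. Of the CAF-1 subunits, CHAF1A stood at 0.20 ± 0.11 and CHAF1B at 0.03 ± 0.11, and MCM2, the helicase subunit that also binds H3-H4, at -0.12 ± 0.11 (SE). NASP, which stores soluble H3-H4, stood at 0.003 ± 0.10, HAT1, which acetylates new H4, at -0.02 ± 0.11, and the ASF1 kinases TLK1 and TLK2 at -0.006 ± 0.11 and -0.08 ± 0.10. DAXX and ATRX, which place H3.3 at repeats and telomeres, stood at -0.03 ± 0.11 and 0.08 ± 0.13. All of these differences were within 2 of their standard errors.

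SUPT6H and SUPT16H, which rebuild nucleosomes behind RNA polymerase, stood at -0.09 ± 0.14 and -0.07 ± 0.12 (SE). GSK3B, a kinase that phosphorylates HIRA in senescent cells and is also a reported miR-224 target, read 7.47, 7.44 and 7.60 in miR-224 cells and 7.83, 7.91 and 8.10 in control cells. Every miR-224 array lay below every control array, as on 2.64% of all probe sets. The difference of GSK3B was -0.44 ± 0.10 (SE, limma adjusted p = 0.27). PML, which forms the bodies through which HIRA passes, stood at -0.03 ± 0.11. Outside the genes fixed for naming, SPTY2D1, an H3-H4 chaperone of transcribed genes, had the lowest difference of the 28, at -0.56 ± 0.14, and SP100, a PML body protein, the next lowest at -0.47 ± 0.12 (SE). SPTY2D1 read 6.86, 5.52 and 5.45 in miR-224 cells and 7.10, 6.45 and 5.98 in control cells, and SP100 read 6.82, 6.21 and 6.35 in miR-224 cells and 7.04, 6.75 and 6.98 in control cells. Both were lower in each experiment, their groups overlapped, and neither passed the test (limma adjusted p = 0.30 for both). The highest differences of the 28 were those of CCNA2, a cyclin that activates CDK2, at 0.33 ± 0.12, and SSRP1, which forms the FACT chaperone with SUPT16H, at 0.24 ± 0.10 (SE). CCNA2 read 8.45, 8.58 and 7.73 in miR-224 cells and 8.23, 8.41 and 7.12 in control cells. SSRP1 read 9.70, 9.15 and 8.72 in miR-224 cells and 9.41, 8.92 and 8.53 in control cells. Both were higher in each experiment, their groups overlapped, and neither passed the test (limma adjusted p = 0.43 for CCNA2 and 0.51 for SSRP1). CDAN1, of the list of H3-H4 supply and ASF1 kinases, lay farther from 0 than SSRP1, at -0.30 ± 0.11 (SE, limma adjusted p = 0.45). It read 5.87, 5.86 and 5.14 in miR-224 cells and 6.30, 5.95 and 5.51 in control cells. It was lower in each experiment, with groups that overlapped. SPTY2D1, SP100, CCNA2, SSRP1 and CDAN1 were chosen after their values were seen.

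**Figure D5:**
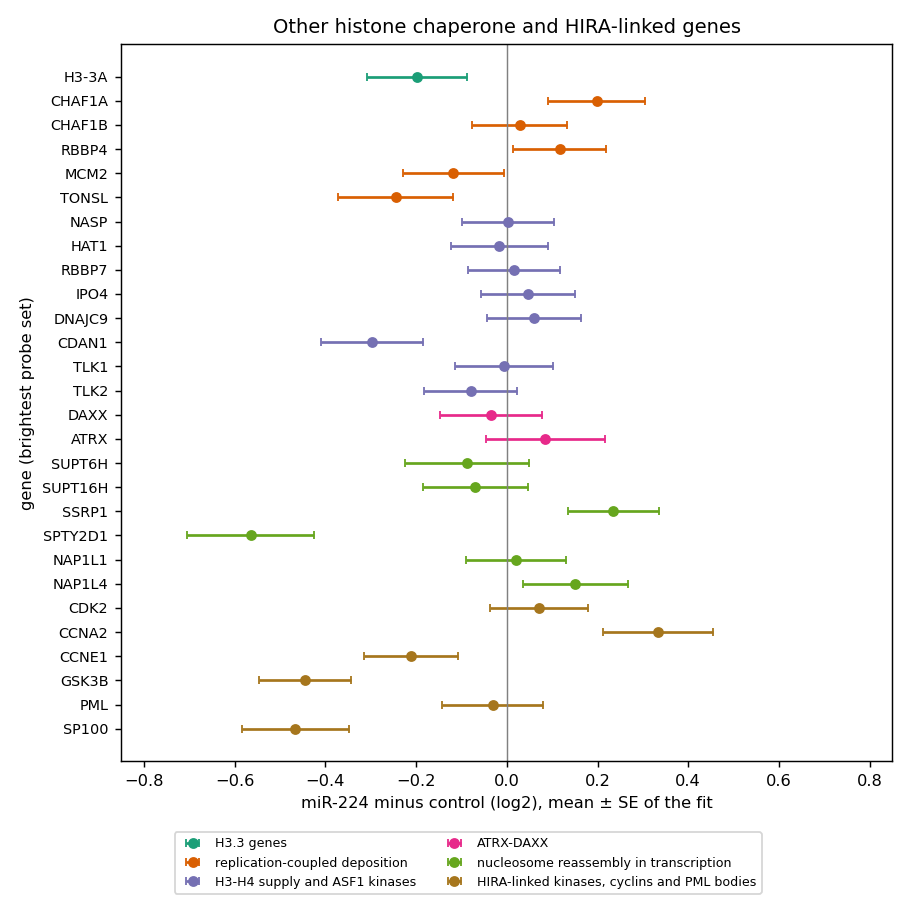
Difference between miR-224 and control cells (log2, x axis; points and bars are the mean ± SE of the blocked fit) for the brightest probe set of 28 other histone chaperone and HIRA-linked genes, coloured by list. Most points lie within 0.3 of 0, with SPTY2D1, SP100 and GSK3B farthest to the left at -0.56, -0.47 and -0.44.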

How the data were processed

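Total RNA of 6 HCT116 cultures was read on Affymetrix U133 Plus arrays. RMA and Partek were the authors' tools, per the submitters' processing notes, with versions and settings not given in the sources used here. The deposited values were read as log2 values: they ran from 1.47 to 13.6 with array medians of 3.41 to 3.53, while the base is not stated. RMA makes arrays alike, so a shift shared by most genes cannot be seen. Gene names came from GEO's annotation of the platform. Of 54613 probe sets without 62 array controls, 41091 had 1 symbol, 1801 several and 11721 none listed. The array values name no genome build, so no gene coordinates are printed.

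All probe sets were fitted with limma 3.58.1 in R 4.3.3 (lmFit, eBayes, two-sided, Benjamini-Hochberg over all probe sets, threshold 0.05), with experiment as a block, which leaves 2 residual degrees of freedom. The series describes pairs from independent experiments. Deviations from the group means, correlated across probe sets, were 0.902, 0.734 and 0.783 for same-numbered arrays and -0.777 to 0.474 for others, so the numbers pair the arrays. An exact sign-flip test over 3 pairs cannot go below p = 0.25, and none is given. Standard errors and 95% intervals are those of the moderated fit. Members and lists were chosen with earlier results of these data known. Genes named are the members, 15 fixed genes of the lists, any other list member that passed and the 5 nearest profiles. SPTY2D1, SP100, CCNA2, SSRP1 and CDAN1 were added after their values were seen. Alternatives were no block, each experiment left out, a filter on level, quantile normalization, median centring, 1 probe set or the mean per gene, and an intensity trend with robust variances. The fit was tried on simulated data only with shifts larger than most differences given here. That trial does not bear on the smaller differences that did not pass. matplotlib 3.10.9 (Python 3.11.15) drew the figures.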

Additional observations from a re-analysis of the deposited data

How the results depend on the processing

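The UBN2 difference on its brightest probe set kept its sign under the 9 alternatives that use that probe set, from -0.98 to -0.53. Both ends came with an experiment left out, which removes both of its arrays. The mean over all 5 UBN2 probe sets was -0.33. Without experiment as a replicate block it was again -0.82, with a standard error of 0.20, and limma called 0 probe sets with 1067 at an unadjusted p under 0.05. The count over all probe sets was 0 to 137 with an experiment left out, and the 137 (5 higher, 132 lower) came without experiment 1. It was 28 (3 higher, 25 lower) with an intensity trend and robust variances, and 0 under the other 8 alternatives. Of the probe sets of UBN1, HIRA, CABIN1, ASF1A and ASF1B, 0 were called under each of the 10. Of the differences that did not pass, some changed sign. With an experiment left out, ASF1B ranged from -0.239 to 0.0869, positive without experiment 2, and CABIN1 from -0.0729 to 0.158, negative without experiment 1. Averaged over their probe sets, CABIN1 stood at -0.0522 and UBN1 at -0.0845. The cause was not tested. The 3 dim probe sets of UBN2 and HIRA lie below the median level, where signal limits what can be seen.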

Other observations

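Experiment 2 gave the widest difference between miR-224 and control cells on 10 of the 14 probe sets of the HIRA complex and ASF1 genes, in both directions, while experiments 1 and 3 gave it on 2 each. Over all probe sets the widest difference fell in experiment 2 for 31.1%, in experiment 1 for 32.1% and in experiment 3 for 36.8%. The probe sets of 1 gene share their transcript and all share the same 6 arrays, so the 14 are not independent. They also include those of UBN2, which was chosen for its difference on these arrays. The count therefore only describes the 14 and does not test them against all probe sets. Outside UBN2, experiment 2 was widest on every probe set of HIRA, ASF1A and ASF1B. On the brightest probe sets of UBN1 and CABIN1, experiment 1 was widest.

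The levels of ASF1A followed the experiments far more than the treatment. On 203427_at, experiment 1 lay above the mean of experiments 2 and 3 by 1.34 in miR-224 cells and by 1.49 in control cells, against a difference between the groups of 0.19. On 203428_s_at the same gaps were 0.64 in miR-224 cells and 0.79 in control cells. For CABIN1 on 202624_s_at, experiment 1 lay below by -0.60 in miR-224 cells and -0.77 in control cells. The second UBN2 probe set, 225444_at, was higher in experiment 1 by 1.37 in miR-224 cells and by 0.50 in control cells, whereas 225445_at stood at 0.30 in miR-224 cells and -0.17 in control cells.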
